A study of Homo sapiens with 12 samples.

Results

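Dystrophin, its paralog utrophin and 7 proteins that join them in one membrane complex were followed in a human liposarcoma line, SW872, engineered to express 1 of 2 fusion proteins, TAZ-CAMTA1 (TC) or YAP-TFE3 (YT). The 9 genes, DMD, UTRN, DAG1, SGCB, SGCD, SGCE, SNTB1, SNTB2 and DTNA, were taken by symbol from the 58735 rows of the table of gene counts, 1 row for each. DMD was chosen on its measured difference between YT and TC cells, one of the largest of all genes. The other 8 code for its paralog utrophin and for the 7 proteins that join dystrophin or utrophin in the complex. The set was thus chosen by the values of DMD in the 2 lines, so every difference of DMD between the lines, and every change of DMD from the YT control libraries in which it was high, is given as a description, with no test.

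Each fusion line carried a non-targeting hairpin (shNT) or a hairpin against YEATS2 (shYEATS2) or ZZZ3 (shZZZ3), 2 genes whose products belong to the histone acetyltransferase complex ATAC, in 2 libraries per group and 12 in all. The fusions were introduced as retroviral constructs and the knock-downs were stable, so each group is a selected population of SW872 cells and not a clone. No library of SW872 cells without a fusion is among the 12, and the labels do not name the hairpin used for each target. The authors describe biological duplicates per condition, and the labels do not say whether the 2 libraries of a group came from separate cultures. The tests thus measure the spread between these libraries.

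Total counts ran from 17451893 to 29294805 per library. YEATS2 fell with its hairpin in both lines (in TC by a log2 fold change of -1.54 ± 0.18 SE, adjusted p = 0.0138, in YT by -1.68 ± 0.18 SE, adjusted p = 0.000105). ZZZ3 fell in YT (log2 fold change -1.51 ± 0.43 SE, adjusted p = 0.0453) and did not pass the test in TC (-0.94 ± 0.42 SE, adjusted p = 0.450), where its level was 25.6 and 60.4 CPM under shNT and 21.9 and 22.7 CPM under shZZZ3. The 2 libraries of TC shNT, of YT shZZZ3 and of TC shYEATS2 differed more from each other than those of the remaining groups (a chi-square per degree of freedom over genes of 89, 81 and 45.2, against 9.15 to 15.4). Of the markers of fat cells, PPARG, LPL and LIPE were expressed in every group. Over the 12 libraries CEBPA had 539 counts, PLIN1 233, and the late markers FABP4 and ADIPOQ 8 and 5. CEBPA stood at 1.42 CPM per kilobase of transcript in YT shNT, 0.0896 in YT shYEATS2 and 0.462 in YT shZZZ3. Levels below are given as CPM, that is, counts relative to the TMM-adjusted size of each library, and fold changes and adjusted p values come from 1 edgeR quasi-likelihood fit to the 12 libraries, and a gene is called where the p adjusted over 18415 genes is under 0.05. All 9 genes passed the filter of 5 counts on average, DMD through its YT libraries alone.

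Dystrophin is a long rod beneath the plasma membrane that holds actin filaments at one end and β-dystroglycan at the other. Dystroglycan spans the membrane and its sugar chains grip laminin, so the complex ties the cytoskeleton to the basement membrane. The sarcoglycans brace dystroglycan within the membrane, and the dystrobrevins and syntrophins sit on the cytoplasmic side and recruit signalling proteins and channels. Loss of dystrophin causes Duchenne muscular dystrophy, and loss of sarcoglycans causes limb-girdle dystrophies. Outside muscle, utrophin fills the place of dystrophin in most cells, and short dystrophins from internal promoters are made in brain, retina, kidney and Schwann cells.

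DMD (ENSG00000198947) lies on the minus strand of chromosome X (chrX:31097677-33339609, GRCh38) and is transcribed from several promoters, which gene counts do not tell apart. RefSeq (GRCh38.p14) gave 6 separate start regions for DMD and 6 for DTNA, and 7 of the 9 genes had a promoter in its table. The 250 bases before each start were searched on both strands for GGAATG (the core bound by the TEAD partners of YAP and TAZ), CACGTG (the E-box bound by TFE3), TGACTCA (AP-1) and the CArG box of serum response factor. Among 35116 promoters, 11.9% held the first, 6.34% the second, 4.2% the third and 1.16% the CArG box. The 4 promoters of DMD and DTNA with a match are shown because these genes had their highest level in the same group, YT shNT, and stood lower with shYEATS2 there, with the match in capitals.
DMD, Purkinje cell promoter, chrX:33128428-33128677, minus strand: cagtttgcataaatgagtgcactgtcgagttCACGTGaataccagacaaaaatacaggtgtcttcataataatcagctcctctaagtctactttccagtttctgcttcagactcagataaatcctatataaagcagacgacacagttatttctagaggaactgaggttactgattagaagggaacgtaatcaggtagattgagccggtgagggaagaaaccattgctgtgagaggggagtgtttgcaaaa
DMD, muscle promoter, chrX:33211550-33211799, minus strand: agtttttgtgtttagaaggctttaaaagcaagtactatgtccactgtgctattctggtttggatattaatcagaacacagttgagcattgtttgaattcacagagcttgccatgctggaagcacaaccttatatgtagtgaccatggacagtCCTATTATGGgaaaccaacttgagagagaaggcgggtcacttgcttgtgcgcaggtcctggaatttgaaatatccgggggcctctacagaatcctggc
DTNA, chr18:34593085-34593334, plus strand: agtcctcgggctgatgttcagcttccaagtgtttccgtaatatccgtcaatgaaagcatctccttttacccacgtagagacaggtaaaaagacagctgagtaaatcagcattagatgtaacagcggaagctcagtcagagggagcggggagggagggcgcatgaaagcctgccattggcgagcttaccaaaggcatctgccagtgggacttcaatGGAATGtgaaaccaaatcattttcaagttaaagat
DTNA, chr18:34710048-34710297, plus strand: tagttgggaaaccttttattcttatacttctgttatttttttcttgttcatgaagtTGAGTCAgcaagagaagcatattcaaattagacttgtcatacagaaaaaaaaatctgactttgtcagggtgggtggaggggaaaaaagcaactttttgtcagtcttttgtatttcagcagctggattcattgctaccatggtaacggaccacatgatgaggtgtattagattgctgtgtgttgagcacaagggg
The capitals mark an E-box that begins 219 bases before the start of the Purkinje cell transcript of DMD, a CArG box that begins 98 bases before the start of its muscle transcript, a TEAD core 35 bases before a DTNA start and an AP-1 site, read on the opposite strand, 194 bases before another. Each is a match of letters in this window, and which start the cells used was not measured by gene counts. The promoters of UTRN, DAG1, SGCB and SNTB2 held no match to the 4 motifs in this window, and that of SGCD held 1 TEAD core, 137 bases before its start.

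DMD was nearly confined to the YT line. The 6 TC libraries held 8 DMD counts of 137982240 in all, and the 6 YT libraries 1363 of 132664157. Under shNT, DMD stood at 30.6 and 19.2 CPM in YT (579 and 334 counts) and had 0 counts in both TC libraries, where 3 counts, the limit that a count of 0 allows, would be 0.114 and 0.143 CPM. Against that floor DMD was at least 193-fold higher in YT shNT, and this is the difference for which the gene was selected. In bulk RNA a smaller share of cells with DMD and less DMD per cell cannot be told apart, and floors and intervals from counts cover counting error only.

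**Figure D1:**
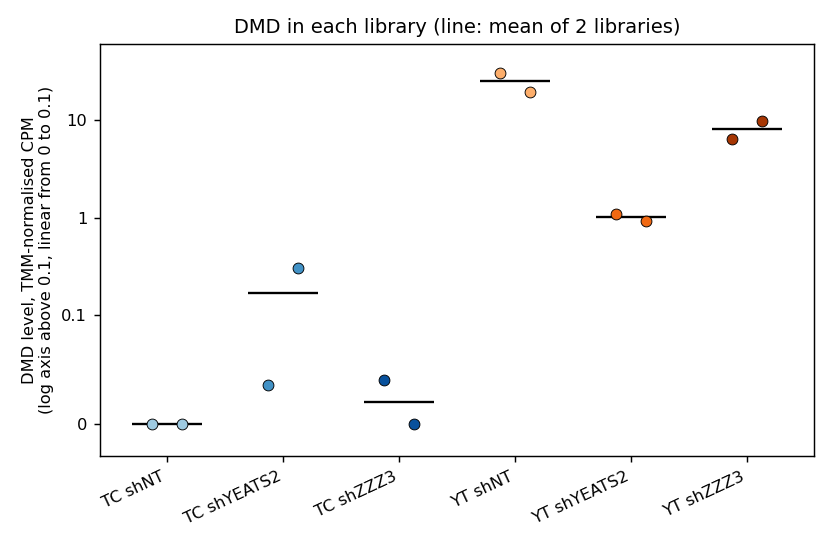
DMD level in TMM-normalised CPM (log axis above 0.1, linear below) in each of the 12 libraries (points) of 6 groups, with the mean of 2 libraries as a line. The YT libraries ran from 0.928 to 30.6 CPM, and no TC library was above 0.301 CPM.

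DMD stood lower with both hairpins than with shNT in YT cells. With shYEATS2 DMD stood at 1.08 and 0.928 CPM (26 and 18 counts), and with shZZZ3 at 6.36 and 9.76 CPM (175 and 231 counts). None of these libraries reached the lower of the YT shNT libraries. The log2 fold change was -4.51 ± 0.48 SE for shYEATS2 (95% interval -5.58 to -3.44) and -1.62 ± 0.40 SE for shZZZ3 (-2.51 to -0.73). Both contrasts share the YT shNT libraries in which DMD was chosen as high, a choice that favours a lower value elsewhere. With any 1 of the 4 libraries left out the log2 fold change ran from -4.80 to -4.14 for shYEATS2 and was -1.22 without YT shNT replicate 1, -1.88 without YT shNT replicate 2 and -1.29 without YT shZZZ3 replicate 1 for shZZZ3.

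The 2 hairpins were also set against each other within YT cells, a contrast between libraries of 1 line. DMD was lower with shYEATS2 than with shZZZ3 in YT cells by a log2 fold change of -2.89 ± 0.47 SE. DMD passed the count filter through its YT libraries alone, with 406 counts under shZZZ3 and 44 under shYEATS2. This difference is therefore also a description, with no test. DMD counts as the 1 member called in that contrast, in which 7.21% of all genes were called. The call was lost without YT shYEATS2 replicate 1 (log2 fold change -3.02) or replicate 2 (-2.82). In TC cells DMD had 1 and 6 counts with shYEATS2 and 1 and 0 with shZZZ3, at or near the floor of detection, so no change could be measured there. The interaction of hairpin and line is not used for DMD, since it rests on TC libraries with 0 to 6 counts and on the shNT libraries that chose the gene. None of the other 8 genes was called in the shYEATS2 interaction by edgeR or DESeq2, where 9.36% of all genes were called and 3 of the 9 members, DMD included, had an unadjusted p under 0.05.

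The values of DMD in the 2 lines under the hairpins complete the description. Under shYEATS2 there were 44 counts in YT against 7 in TC, 6 of them in TC shYEATS2 replicate 2, a ratio of 6.99 (exact 95% counting interval 3.13 to 18.4). Under shZZZ3 the counts were 406 in YT against 1 in TC, a ratio of 344 (exact 95% counting interval 61.4 to 13630).

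UTRN (ENSG00000152818, chr6:144285335-144853034, GRCh38), the paralog that links the same partners to actin in most tissues, was expressed in both lines, unlike DMD. It stood at 50.4 and 113 CPM in TC shNT, 48.0 and 66 CPM in TC shYEATS2 and 59.1 and 67.6 CPM in TC shZZZ3. In YT it stood at 114 and 67.7 CPM with shNT, 65.4 and 58.0 CPM with shYEATS2 and 74.3 and 127 CPM with shZZZ3. The libraries of a pair differed by a log2 ratio of up to -1.17 (TC shNT replicate 1 over replicate 2), and UTRN passed no test in any of the 10 contrasts. With shYEATS2 in YT its log2 fold change was -0.55 (95% interval -1.39 to 0.28), an interval that includes 0. Within each YT pair UTRN and DMD differed in the same direction, and so did SGCB, SGCD, SGCE, SNTB1 and SNTB2. The direction was thus not particular to UTRN and DMD. DAG1 differed in the opposite direction in each YT pair, and DTNA did so with shZZZ3. For UTRN and DMD the log2 ratios of replicate 1 over replicate 2 were 0.75 and 0.67 with shNT, 0.17 and 0.22 with shYEATS2 and -0.77 and -0.62 with shZZZ3. The third family member, DRP2, a relative best known from Schwann cells, had 1.37 and 1.32 CPM in YT shNT and 0.666 and 0.567 CPM in YT shYEATS2 (16 and 11 counts), a log2 fold change of -1.02 ± 0.33 SE that was called by edgeR (adjusted p = 0.0312) and not by DESeq2 (adjusted p = 0.107).

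Per kilobase of the reference transcript (MANE Select, 13992 bases for DMD), UTRN was above DMD in all 12 libraries. A shorter dystrophin transcript would give DMD a higher level per kilobase, and which form the cells made was not measured. DMD made up 19.9% and 20.8% of the sum of both per kilobase in the control libraries of YT, 1.51% and 1.46% with shYEATS2 and 7.33% and 6.64% with shZZZ3. These shares lay close together within each YT pair although UTRN itself did not. In the TC libraries the share ran from 0% to 0.42%.

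DTNA (ENSG00000134769, chr18:34493291-34891844, GRCh38) codes for α-dystrobrevin, which binds dystrophin and the syntrophins, and was the member whose level ran most like that of DMD. It stood in YT at 15.8 and 15.3 CPM with shNT, at 5.66 and 4.85 CPM with shYEATS2 and at 13.7 and 13.2 CPM with shZZZ3. In TC it stood at 5.64 and 7.36 CPM with shNT, 2.57 and 8.08 CPM with shYEATS2 and 4.38 and 4.11 CPM with shZZZ3. Both YT shYEATS2 libraries thus lay within the range of the TC libraries, and the other YT libraries lay above every TC library.

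DTNA fell with shYEATS2 in YT (log2 fold change -1.55 ± 0.40 SE, 95% interval -2.43 to -0.67, adjusted p = 0.0189), and not measurably with shZZZ3 (-0.21, 95% interval -1.05 to 0.64, adjusted p = 0.791). The call for shYEATS2 was lost without any 1 of the 4 libraries, with log2 fold changes of -1.65 to -1.44 and adjusted p of 0.0772 to 0.138. Between the lines DTNA was 1.25 higher (log2) in YT under shNT, the contrast that chose DMD and so given without a test. Under shYEATS2 its log2 fold change between the lines was -0.00 (95% interval -0.89 to 0.89, adjusted p = 0.9998), with the TC pair at 2.57 and 8.08 CPM. Without TC shYEATS2 replicate 2 it was 1.004 (adjusted p = 0.0411). Under shZZZ3 its log2 fold change was 1.64 ± 0.41 SE and missed the threshold (adjusted p = 0.0570). The interaction for shYEATS2 was not called either (-1.25, adjusted p = 0.199). Its sister gene DTNB, β-dystrobrevin, ran from 10.6 to 18.5 CPM over the libraries and passed no test.

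SNTB1 (ENSG00000172164, chr8:120535745-120813273, GRCh38) codes for β1-syntrophin, an adaptor that brings channels and signalling enzymes to the complex. In YT it was highest under shNT at 23 and 20.98 CPM, stood at 17.6 and 16.2 CPM under shYEATS2, and was lowest under shZZZ3 at 8.47 and 9.13 CPM. In TC the order was the other way, with 5.95 and 7.16 CPM under shNT, 6.31 and 12.6 CPM under shYEATS2 and 15.1 and 12.8 CPM under shZZZ3. In both lines the shZZZ3 libraries did not overlap those with shNT.

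With shZZZ3, SNTB1 fell in YT (log2 fold change -1.31 ± 0.29 SE, adjusted p = 0.0159) and had a log2 fold change of 1.08 ± 0.30 SE in TC that was not called (adjusted p = 0.123; DESeq2 gave 1.09 and 0.0222). The difference of these effects was tested by the interaction and was -2.39 ± 0.42 SE (95% interval -3.30 to -1.48, adjusted p = 0.00925). SNTB1 was the 1 member called in it, with 4.31% of all genes called. The fall in YT was not called without YT shNT replicate 1 (-1.23, adjusted p = 0.117), YT shNT replicate 2 (-1.35, adjusted p = 0.0868) or YT shZZZ3 replicate 1 (-1.21, adjusted p = 0.0848). The interaction was not called without TC shZZZ3 replicate 1 (-2.27, adjusted p = 0.0516) or YT shNT replicate 1 (-2.27, adjusted p = 0.0543). ZZZ3 itself did not pass the test of its knock-down in TC. SNTB1 shares 297 exon bases with MTBP on the opposite strand, and the sources used here do not state whether counting used the strand. MTBP, with 2370 counts over the libraries against 3334 for SNTB1, had a log2 fold change of 0.00 in YT and 0.06 in TC with shZZZ3. The part of MTBP reads in the level of SNTB1 was not tested.

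SNTB2 (ENSG00000168807, chr16:69187147-69309052, GRCh38), β2-syntrophin, was the steadiest of the 9 genes. Its 12 libraries ran from 76.5 to 124 CPM with a median of 94.97 CPM, its highest group mean was 1.22 times its lowest, and it passed no test. The γ-syntrophins SNTG1 and SNTG2 were below the filter.

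**Figure D2:**
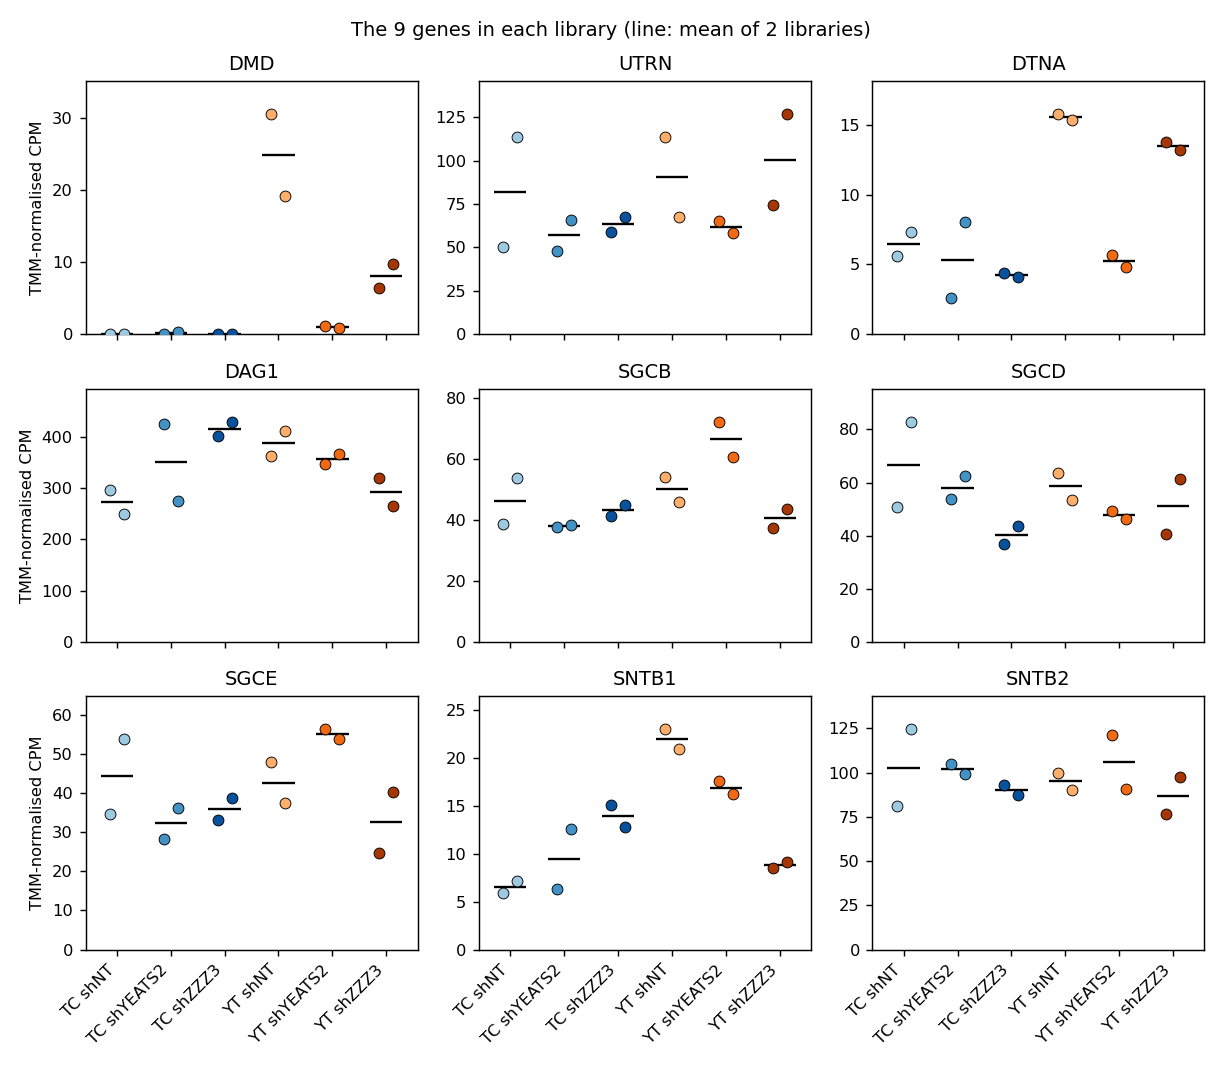
Level of the 9 genes in TMM-normalised CPM (linear axes from 0) in each library (points), with the mean of 2 libraries per group as a line. DMD, DTNA and SNTB1 had their highest means in YT shNT, and SNTB2 ran from 76.5 to 124 CPM over all groups.

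DAG1 (ENSG00000173402, chr3:49468713-49535618, GRCh38) codes for dystroglycan, the laminin receptor at the core of the complex, and was the most abundant member by far. Its level was 297 and 250 CPM in TC shNT, 426 and 276 CPM in TC shYEATS2 and 403 and 430 CPM in TC shZZZ3. In YT it was 363 and 413 CPM with shNT, 347 and 368 CPM with shYEATS2 and 320 and 266 CPM with shZZZ3. With shZZZ3 its log2 fold change was 0.61 ± 0.22 SE in TC (adjusted p = 0.283) and -0.40 ± 0.22 SE in YT (adjusted p = 0.281), and the libraries did not overlap in either line. The interaction was -1.01 ± 0.31 SE and missed the threshold (adjusted p = 0.0985), as did every other test of DAG1.

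The sarcoglycans form a subcomplex that binds dystroglycan. SGCB (ENSG00000163069, chr4:52020706-52038299, GRCh38) had its 2 highest libraries in YT shYEATS2, at 72.1 and 60.7 CPM, against 37.7 and 38.5 CPM in TC shYEATS2, and the difference was called (log2 fold change 0.80 ± 0.21 SE, 95% interval 0.35 to 1.25, adjusted p = 0.0255). Its remaining libraries ran from 37.3 to 54.1 CPM. That call was lost without any 1 of the 4 libraries (log2 fold change 0.67 to 0.91, adjusted p 0.0741 to 0.207) and when counts were scaled by library totals (0.72, adjusted p = 0.0719). Against its own control, YT shNT with 54.1 and 45.8 CPM, SGCB did not pass the test (0.41 ± 0.20 SE, adjusted p = 0.175).

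SGCE (ENSG00000127990, chr7:94524204-94656572, GRCh38) stood at 56.2 and 53.8 CPM in YT shYEATS2, 28.3 and 36.2 CPM in TC shYEATS2, 47.8 and 37.4 CPM in YT shNT and 34.7 and 53.8 CPM in TC shNT. It passed no test, and its log2 fold change between the lines under shYEATS2 was 0.77 ± 0.28 SE (adjusted p = 0.0995). SGCE shares 219 exon bases with PEG10 on the opposite strand, a gene with 372923 counts over the libraries against 10683 for SGCE. PEG10 was higher in YT shYEATS2 than in YT shNT (log2 fold change 2.43 ± 0.27 SE, adjusted p = 0.000139) and than in TC shYEATS2 (1.53 ± 0.26 SE, adjusted p = 0.00270). The part of PEG10 reads in the level of SGCE was not tested.

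SGCD (ENSG00000170624, chr5:155870344-156767788, GRCh38) ran from 37.0 to 82.9 CPM and passed no test. Its lowest group mean was in TC shZZZ3, with 37.0 and 43.8 CPM against 50.7 and 82.9 CPM in TC shNT (log2 fold change -0.72 ± 0.26 SE, adjusted p = 0.294). SGCA, a sarcoglycan of muscle, had 0 to 12 counts per library and was below the filter, as was SGCZ. SSPN, sarcospan, which binds the sarcoglycans, stood at 31.5 and 23.1 CPM in YT shNT, 8.31 and 15.7 CPM in TC shNT and 9.59 to 19.9 CPM elsewhere, and passed no test.

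**Figure D3:**
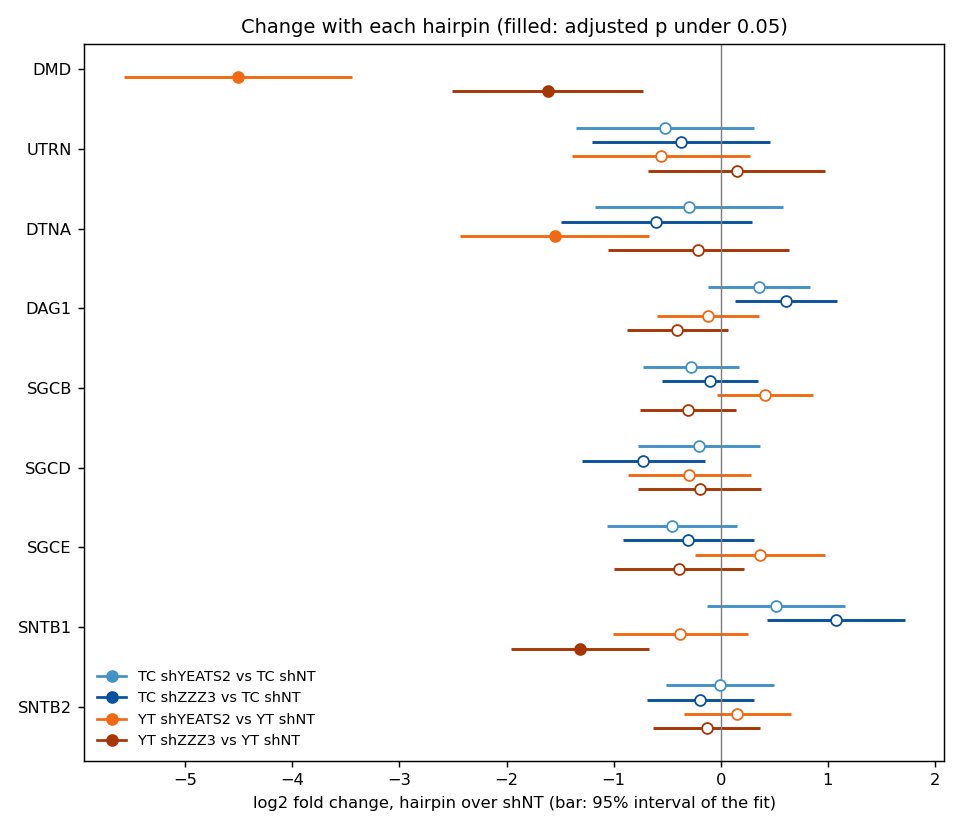
Log2 fold change of each gene with each hairpin over shNT within its line (points, with the 95% interval of the edgeR fit as a bar), filled where the adjusted p was under 0.05. The filled points are DMD and DTNA with shYEATS2 in YT and DMD and SNTB1 with shZZZ3 in YT, the 2 filled points of DMD are a description because it was chosen as high in YT shNT, and DMD in TC is left out because it was near 0.

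Counted over the 9 genes, 2 (DMD and DTNA) were called lower and 0 higher with shYEATS2 in YT, where 20.7% of all genes were called, 9.61% higher and 11.1% lower. With shZZZ3 in YT 2 (DMD and SNTB1) were called lower and 0 higher, where 10% of all genes (1846 of 18415) were called, 4.40% higher and 5.62% lower. DMD counts in both by the choice of the gene, so 1 of the other 8 was called in each. The medians over the 9 genes were -0.29 and -0.30 (log2), beside -0.01 and 0.01 over all genes. In TC, shYEATS2 called 0 of the 9 by edgeR and by DESeq2, with 1 member at an unadjusted p under 0.05, and 0.0434% of all genes were called, 0.0326% higher and 0.0109% lower. ShZZZ3 in TC called 0 by edgeR and 1, SNTB1, by DESeq2, with 3 members at an unadjusted p under 0.05, and 1.50% of all genes were called, 0.918% higher and 0.586% lower. Between the hairpins in TC 0 members were called by either tool, with 0 at an unadjusted p under 0.05 and 1.20% of all genes called.

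Between the lines, 2 of the 9 genes, DMD and SGCB, were higher in YT under shYEATS2 and 0 were lower, where 12.2% of all genes were called, 5.65% higher and 6.53% lower. Under shZZZ3, DMD was higher in YT and 0 were lower, where 2.62% of all genes were called, 1.52% higher and 1.10% lower. DMD is in both counts by its choice, and 1 of the other 8 genes, SGCB, was thus called in the first.

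Read per kilobase of the reference transcript, DAG1 was highest, SGCE next and DMD lowest in every group. The place of DMD rests on a transcript of 13992 bases, and a shorter form would stand higher. DAG1 stood at 50.8 to 77.3 CPM per kb in group means, SGCE at 17.3 to 29.4, SGCB at 8.96 to 15.6 and SNTB2 at 8.90 to 10.9. UTRN stood at 4.41 to 7.78 CPM per kb and SGCD at 4.31 to 7.12, and these neighbours changed places between groups. SNTB2 was above SGCB in TC shYEATS2 and below it in the other groups. SNTB1 at 1.33 to 4.45 and DTNA at 0.646 to 2.37 CPM per kb followed, with DTNA above SNTB1 in YT shZZZ3 alone, and DMD had a highest group mean of 1.78 CPM per kb in YT shNT.

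**Figure D4:**
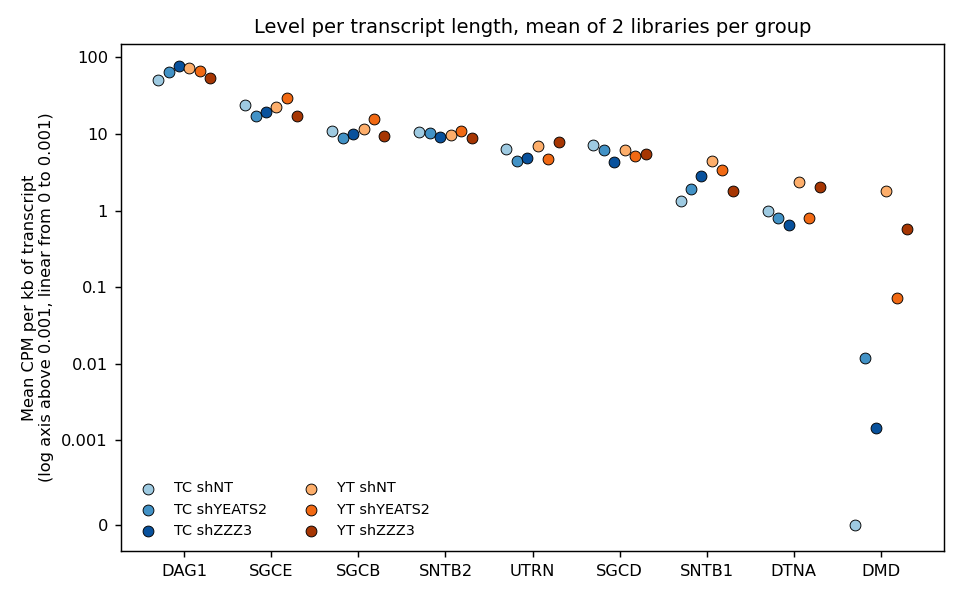
Mean CPM per kilobase of transcript (log axis above 0.001, linear below) of each gene in the 6 groups, each point the mean of 2 libraries. With lengths from the reference transcripts, DAG1 was highest and DMD lowest in every group, and DMD spanned from 0 in TC shNT to 1.78 CPM per kb in YT shNT.

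Across the 12 libraries, which come as 6 pairs from 2 lines, the log2 CPM of DMD had a Pearson correlation of 0.84 with DTNA, 0.54 with SNTB1 and 0.50 with UTRN. The correlations with SGCB, SGCD, SGCE and DAG1 lay between 0.00 and 0.20, and that with SNTB2 was -0.15. Between other members it was highest for SGCB and SGCE (0.91). Among 13257 genes averaging at least 50 counts that were compared with DMD, MCTP1 (0.96), ANK2 (0.96), LMOD1 (0.95), ENSG00000270504 (0.93) and LINC00632 (0.93) were most like it.

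ANK2, ankyrin-B, a membrane adaptor known to bind dystrophin, stood in YT at 160 and 161 CPM with shNT, 22.8 and 19.3 CPM with shYEATS2 and 22.7 and 23.96 CPM with shZZZ3, and in TC at 1.12 to 3.01 CPM. Its log2 fold change in YT was -2.92 ± 0.33 SE with shYEATS2 and -2.78 ± 0.33 SE with shZZZ3, and -0.14 ± 0.31 SE between them. LMOD1, leiomodin of smooth muscle, had 25.5 and 20.98 CPM under shNT, 1.46 and 1.34 CPM under shYEATS2 and 12.8 and 8.03 CPM under shZZZ3 in YT, and 0.534 to 1.44 CPM in TC. MCTP1, a calcium-binding membrane protein, had 60.2 and 41.7 CPM under shNT, 0.915 and 0.774 CPM under shYEATS2 and 10.2 and 15.9 CPM under shZZZ3 in YT, and 0 to 0.534 CPM in TC. The log2 fold changes of LMOD1 and MCTP1 in YT were -3.97 and -5.77 with shYEATS2 and -1.15 and -1.96 with shZZZ3. These genes were chosen for their likeness to DMD over the same libraries, so their changes are descriptions, with no test.

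**Figure D5:**
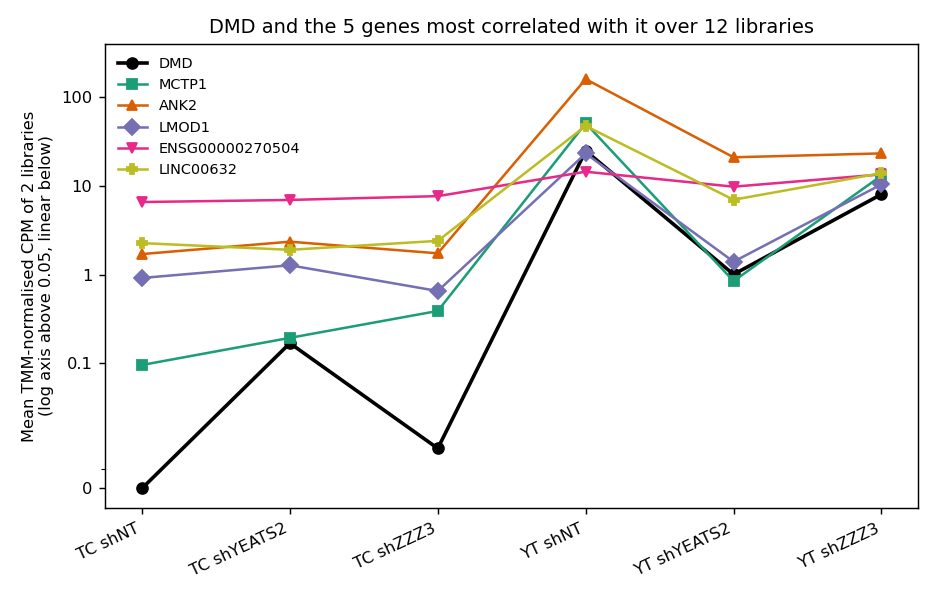
Mean TMM-normalised CPM of 2 libraries per group (log axis above 0.05, linear below) for DMD and the 5 genes most correlated with it over 12 libraries, with lines that only join the points of a gene. All 6 genes had their highest mean in YT shNT and a lower one in YT shYEATS2 than in YT shZZZ3.

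Among 20 listed partners of the complex in the cytoskeleton and membrane, 18 were tested. In YT 1 rose with shYEATS2 (ITGA7, the α7 integrin chain, log2 fold change 1.41 ± 0.32 SE, adjusted p = 0.00958) and 2 were called lower, ANK2 and DES, beside 20.7% of all genes called. DES, the desmin of muscle filaments, stood at 2.11 and 2.70 CPM in YT shNT and 0.208 and 0.310 CPM in YT shYEATS2 (-2.86 ± 0.64 SE, adjusted p = 0.00479). With shZZZ3 ANK2 and DES were called lower in YT and 0 higher, beside 10% of all genes (1846 of 18415). ANK2 was taken above for its likeness to DMD over these libraries, so it is a description in both counts. In TC 0 of the 18 were called with either hairpin by edgeR or DESeq2, with 0 at an unadjusted p under 0.05 for shYEATS2 and 4 for shZZZ3. Of all genes, edgeR called 0.0434% with shYEATS2 and 1.50% with shZZZ3 in TC. The list's medians in the 4 contrasts lay between -0.06 and 0.25 (log2), beside -0.01 to 0.01 over all genes.

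The enzymes that build the laminin-binding sugar of dystroglycan were all 18 tested. With shYEATS2 in YT 4 rose, among them LARGE2, POMT2 and B4GAT1, and 2 fell, among them RXYLT1, with a median of 0.19 (log2), beside 20.7% of all genes called. LARGE2, a glycosyltransferase of this pathway, rose with shYEATS2 in YT, from 2.32 and 2.47 CPM to 8.99 and 10.7 CPM (2.0 ± 0.30 SE, adjusted p = 0.000871). In TC 0 of the 18 were called with either hairpin by edgeR or DESeq2, with 0 at an unadjusted p under 0.05 for shYEATS2 and 1 for shZZZ3. The share of all genes called by edgeR there was 0.0434% with shYEATS2 and 1.50% with shZZZ3.

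Dystroglycan holds laminins and other matrix or membrane ligands. Of 15 listed, 14 were tested, and with shYEATS2 in YT 2 rose (LAMA2 and LAMA4) and 2 fell (NRXN3 and LAMA1), with a median of 0.45 (log2), beside 20.7% of all genes called. LAMA1, the laminin α1 chain, stood at 340 and 371 CPM in YT shNT and 4.08 and 4.18 CPM in YT shYEATS2 (log2 fold change -6.40 ± 0.33 SE, adjusted p = 3.02e-06). NRXN3, a neurexin, stood at 12.8 and 13.6 CPM in YT shNT, 2 and 0 counts in YT shYEATS2 and 1.35 and 1.65 CPM in YT shZZZ3. LAMA2, the laminin α2 chain of muscle, rose with shYEATS2 (2.69 ± 0.54 SE, adjusted p = 0.00394). With shZZZ3 in YT 2 rose (LAMA4 and BGN) and 2 fell (NRXN3 and LAMA1), beside 10% of all genes called. With shZZZ3 in TC LAMA1 and NRXN3 rose (2.83 and 2.05) and 0 fell, beside 1.50% of all genes called. With shYEATS2 in TC 0 of the 14 were called by edgeR, beside 0.0434% of all genes. There 2 had an unadjusted p under 0.05, and 2 were called higher by DESeq2 (LAMA1 and EGFLAM).

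The chromosomal neighbours of DMD on Xp21 gave a further comparison. Of 12 listed, 8 were tested. TMEM47 had 24 and 23 counts in the YT libraries with shNT, 1 and 2 with shYEATS2, 5 and 6 with shZZZ3 and 0 in every TC library, and so passed the filter through the YT shNT libraries where it was high, and its change is given by these counts, with no test. NR0B1 moved opposite to DMD with shYEATS2 in YT (4.67 ± 0.33 SE, adjusted p = 1.11e-05). CYBB passed the filter narrowly, with 62 counts over the 12 libraries, and was highest in YT shYEATS2. Its level was 0.115 CPM per kb there and 0.0129 in YT shNT, and this is given with no test. GK, TAB3, XK, PRRG1 and DYNLT3 were not called with either hairpin in YT, beside 20.7% of all genes called with shYEATS2 and 10% with shZZZ3.

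The marker genes of the cell types in which dystrophin is best known were read beside DMD. Of 13 skeletal muscle markers with a count row, 7 were tested, MYF5 and MYF6 were at 0 in every library, MYOD1 and MYOG had 45 and 12 counts over the 12 libraries, and the summed level was 41.6 to 45.1 CPM in YT shNT against 65.3 to 115 CPM in TC shNT. TNNT1 had the most counts of them. Of those tested, TNNT1, CKM and NEB had a lower mean in YT shNT than in TC shNT, and PAX7, DES, TTN and CHRNA1 a higher one. With shYEATS2 in YT PAX7 and DES were called lower and TNNT1 higher, beside 20.7% of all genes. With shZZZ3 in YT DES was called lower and NEB higher, beside 10% of all genes. The 6 smooth muscle markers summed to 69.8 to 79.2 CPM in YT shNT and 47.3 to 77.5 CPM in TC shNT, with MYOCD at 0 in every library. With shYEATS2 in YT they summed to 59.5 to 66.6 CPM. Of the 4 tested, 3 were called lower (LMOD1, CNN1 at -2.09 and ACTA2 at -1.06) and 0 higher, beside 20.7% of all genes. Their median was -1.58 (log2), beside -0.01 over all genes. With shZZZ3 in YT LMOD1 was called lower and SMTN higher, beside 10% of all genes (1846 of 18415). LMOD1 was taken above for its likeness to DMD over these libraries, so it is a description in both counts. The 6 Schwann cell markers summed in YT to 160 to 161 CPM with shNT, 81.7 to 84.3 CPM with shYEATS2 and 102 to 103 CPM with shZZZ3, and in TC to 38.7 to 70.2 CPM, with SOX10, the defining factor, at 0 in every library. The smooth muscle markers that were lower and the Schwann cell sum moved with DMD and DTNA, and their part in the result was not tested.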

How the data were processed

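RNA was sequenced from 12 libraries of SW872 cells, 2 for each of 6 groups assigned by their labels. Stranded poly(A) libraries were prepared, and the authors deposited raw counts per gene (hg38, Ensembl annotation), produced with the bcbio-nextgen pipeline, which ran HISAT2. The methods also name Salmon with tximport and do not say which gave the deposited counts, nor how strand was handled. Counts were TMM-scaled, and the 18415 genes averaging 5 counts or more were tested in edgeR 4.0.16 (R 4.3.3, robust quasi-likelihood, prior count 2, two-sided), with Benjamini-Hochberg adjustment over all of them and 10 contrasts from 1 fit with 6 residual degrees of freedom. Alternatives were other scalings, no count filter, a replicate block, only the groups compared, DESeq2 1.42.0 and each library left out. The script was tested on simulated data. Gene positions and transcript lengths came from GENCODE release 44 (MANE Select transcripts), promoters from RefSeq.

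The named genes were the 9 members, the 5 genes most correlated with DMD, YEATS2 and ZZZ3, and per list up to 3 called genes in each direction. Genes overlapping a member and the other subunits of the complex were added after their values were seen. The members and the lists were chosen with earlier results of these data known. Some listed genes are not reported here. Replicate numbers were not used to pair the samples in the main fit. Deviations of same-numbered libraries correlated from -0.44 to 0.90 over 15 pairs of groups, above 0.1 in 7 of them. The highest value was between TC shNT and YT shZZZ3. What same-numbered libraries may share was not tested.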

Additional observations from a re-analysis of the deposited data

Results flagged for a closer look

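The effect of shZZZ3 on SNTB1 differed between the lines by a log2 difference of -2.39 (edgeR adjusted p = 0.00925), with the 2 YT libraries lower than both YT shNT libraries and the 2 TC libraries higher than both TC shNT libraries.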

How the results depend on the processing

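The count of called genes among the 9 moved by more than 1.5 times in these settings. With shZZZ3 in TC it was 1 without a count filter and 1 with DESeq2 (SNTB1 both times), against 0. With shYEATS2 in YT it was 5 when only the groups compared were fitted (DMD, SGCB, SGCE, SNTB1 and DTNA), against 2. Between the lines under shYEATS2 it was 1 with library totals and 4 without a filter, against 2, and under shZZZ3 it was 2 (DMD and DTNA) without a filter, with the replicate block, with only the groups compared and with DESeq2, against 1. Between the hairpins in YT it was 4 without a filter, 3 with the replicate block, 2 with only the groups compared and 4 with DESeq2, against 1. In the shZZZ3 interaction it was 2 (DAG1 and SNTB1) without a filter and with DESeq2, against 1.

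With each library left out in turn the count was 1 with shYEATS2 in YT, 0 to 2 with shZZZ3 in YT, 0 to 3 between the lines under shYEATS2, 0 to 1 between the hairpins in YT, 0 to 3 in the shYEATS2 interaction and 0 to 1 in the shZZZ3 interaction. These fits have fewer samples, and the lone library of a group is assumed to vary like the other groups. DTNA between the lines under shYEATS2 went from -0.00 to 1.004 (adjusted p = 0.0411) without TC shYEATS2 replicate 2 and to -0.62 without replicate 1, and the cause was not tested. Other scaling moved the median of all genes by at most 0.081 (log2). The replicate numbers were not used to pair the samples in the main fit, and the replicate block changed no other count by more than 1.5 times. With 2 libraries per group, DMD counts in TC were too few to measure a change there, and the spread within a group is poorly known.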
